A study of Mus musculus with 721 samples.

Results

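The comparison from E5.5 epiblast to E6.5 plate epiblast follows the pluripotent tissue of the mouse embryo from just after implantation to the early streak stage, in single cells. All cells came from untreated wild-type C57Bl/6Babr embryos. E5.5 cells came from embryos staged before the anterior visceral endoderm migrates, with the epiblast drawn off the visceral endoderm, and titles that do not name visceral endoderm. E6.5 plate cells came from the dissociated embryonic portion of early streak embryos, with titles that name plate P1, P2 or P3. Cells were selected by measured values: a cell was kept where its mean log2(CPM + 1) over 6 endoderm genes (Apoa1, Ttr, Cubn, Dab2, Amn and Apoc2) was not above its mean over 3 epiblast genes (Pou5f1, Tdgf1 and Dnmt3b), where CPM is the count scaled to a common library total. This kept 349 of the 721 cells in the series, 259 of 262 at E5.5 and 90 of 129 on the E6.5 plates. Counts were summed over the kept cells of each embryo, the replicate here, and sums of at least 3 cells gave 8 E5.5 embryos (257 cells) and 9 E6.5 plate embryos (90 cells). E5.5 embryo 5, with 2 cells, was left out.

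The epiblast is the founder tissue of the fetus. After implantation its cells leave the naive pluripotent state of the blastocyst, pass through a formative phase with genes such as Fgf5 and Otx2, and become able to answer the Nodal, Wnt, BMP and FGF signals that start gastrulation at the posterior side. Over the same days DNA methylation is laid down across the genome and many germline genes are silenced.

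The rule separated E5.5 cells widely and E6.5 cells narrowly. At E5.5 the kept cell nearest the limit had an epiblast mean 3.49 log2 units above its endoderm mean, and the nearest rejected cell was at -4.42. On the E6.5 plates the nearest kept cell was at 0.121 and the nearest rejected cell at -0.0767. The endoderm mean had a median of 0 in kept E5.5 cells and 5.22 in kept E6.5 plate cells. Of the kept E6.5 plate cells, 86 of 90 had a count of at least 1 of the 6 endoderm genes and 37 had counts of all 6, against 93 and 2 of 259 at E5.5. These values chose the cells and carry no test.

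**Figure D1:**
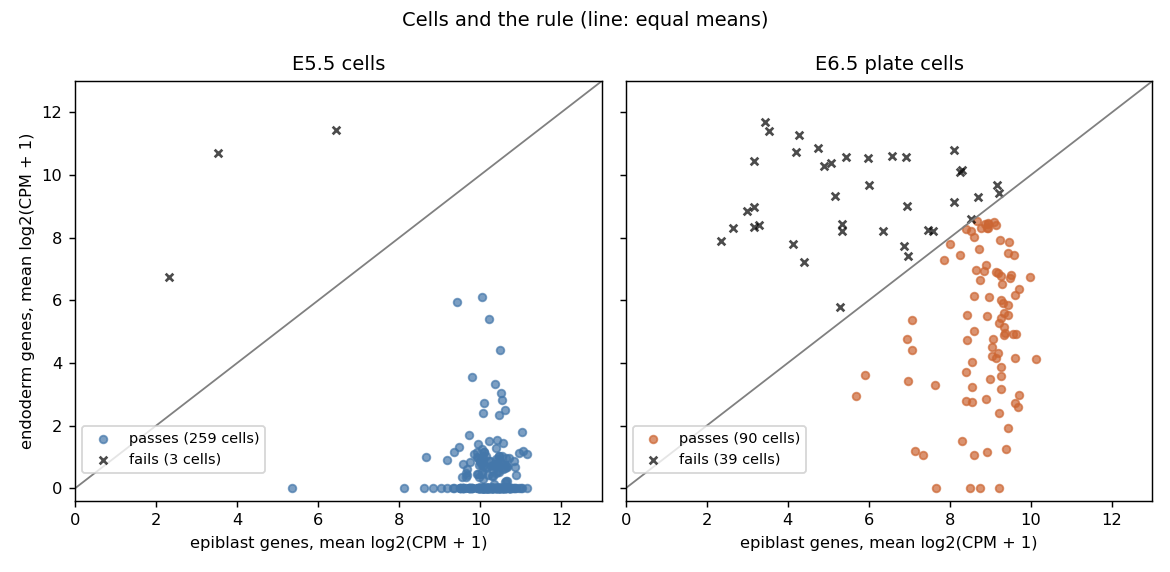
Mean log2(CPM + 1) of the 3 epiblast genes (horizontal axis) and of the 6 endoderm genes (vertical axis) in each E5.5 cell (left) and E6.5 plate cell (right), with circles for kept cells, crosses for rejected cells and a line at equal means. Most kept E5.5 cells lie close to an endoderm mean of 0, while kept E6.5 plate cells spread up to the line.

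The kept cells can be described by epiblast genes that the rule did not use. The adhesion proteins Epcam and Cdh1 were at 370.4 ± 38.8 CPM (SD, n = 8) at E5.5 and 443 ± 104 CPM (n = 9) at E6.5, and at 205 ± 19.9 CPM (SD, n = 8) at E5.5 and 255 ± 89.5 CPM (n = 9) at E6.5. Pou3f1, a factor of the postimplantation epiblast, was at 116 ± 21.9 CPM (SD, n = 8) at E5.5 and 114 ± 40.0 CPM (n = 9) at E6.5. The log2 fold change of Pou3f1 was -0.03 (edgeR, adjusted p = 0.94). With the GC offsets described below it was 1.08 (adjusted p = 0.0029), past the limits used below. Utf1, a chromatin factor of pluripotent cells, was at 387 to 656 CPM at E5.5 and 92.5 to 373 CPM at E6.5, with no overlap. Its log2 fold change of -0.99 (adjusted p = 0.006) was just inside the fold limit used below, and was 0.08 (adjusted p = 0.88) with the GC offsets described below. These 4 genes were chosen after their values were seen, as were Otx2 and Sox2 below. Of the genes that chose the cells, Pou5f1, the core pluripotency factor, was at 1383 to 1891 CPM in E5.5 embryos and 246 to 771 CPM in E6.5 plate embryos. The summed level of 15 trophoblast markers was 54.9 to 169 CPM at E5.5 and 25.6 to 218 CPM at E6.5, with Psg17 and Tpbpa at 0. The summed level of 6 blood markers was at most 9.57 CPM in any embryo, with Tyrobp and Lyz2 at 0. The summed level of 30 visceral endoderm markers was 1791 to 2548 CPM at E5.5 and 2244 to 4344 CPM at E6.5. This sum does not show how single endoderm genes changed. All 6 endoderm genes of the rule had a higher mean at E6.5. Apoa1 was at 0.277 to 27.2 CPM at E5.5 and 63.4 to 741 CPM at E6.5. Ttr was at 0 to 22.2 CPM at E5.5 and 29.4 to 810 CPM at E6.5.

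Sums held 9893864 to 49484352 counts at E5.5 and 1476466 to 22633424 at E6.5, where embryos 1 and 2 have 3 cells each. Wells titled as doubles made up 66 of 259 kept cells at E5.5 and 3 of 90 on the E6.5 plates. The titles give plate names P1, P2.P3, P7.P4.P5 and P11.P6.P10 at E5.5 and P1, P2 and P3 at E6.5, and do not say whether a name that recurs is the same plate. The labels name the embryo and no litter. A lower level in a sum can be fewer cells with the RNA or less RNA per cell, which the sums cannot separate. Reads carried no molecular identifiers, so counts are not independent molecules.

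Across 11199 genes tested, 839 were higher at E6.5 (7.49% of genes tested) and 816 were lower (7.29%), together 14.8%. A gene was called where its log2 fold change exceeded 1 in size and its p, from the quasi-likelihood test of edgeR, was not above 0.05 after Benjamini-Hochberg adjustment over all genes. Every adjusted p below is from this test unless a permutation test is named. Embryos of the stages did not overlap for 247 higher genes (2.21% of genes tested) and 396 lower genes (3.54%). The median log2 fold change over all genes was -0.04. A gene was set aside where its pooled CPM + 1 in rejected cells was at least 4 times that in kept cells, or where it is a visceral endoderm marker. This took out 101 higher and 5 lower genes. Most rejected cells were from E6.5, so the ratio also takes in genes that differ by stage. With the ratio taken within the E6.5 plates alone, 54 higher and 38 lower genes would be set aside. Among lower genes kept here, that second ratio was 19.7 for Stk31, 8.98 for Gm7221 and 7.55 for Dnmt3l.

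The change ran along the GC content of the transcripts. In 5 equal bins of genes by GC content, the lowest bin had 366 higher and 59 lower genes, with a median log2 fold change of 0.53. The highest bin had 32 higher and 367 lower genes, with a median of -0.79. The count-weighted GC content was 49.2 to 50.4% in E5.5 embryos and 47.8 to 49.2% in E6.5 plate embryos, and the groups did not overlap before rounding. With GC offsets for each embryo, an alternative chosen after the data were seen, 578 genes were higher (5.16%) and 572 lower (5.11%), of which 468 and 454 were also called without the offsets. The fit as reported does not adjust for GC content, and its part in any 1 change was not tested beyond these offsets. Of the 97 called genes chosen by the naming rule, 85 kept their call with the offsets, and the others are named where they appear.

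Plate names were put into the fit as a term in an alternative chosen after the data were seen, with P1 taken as shared by the stages and P2, P3 and P2.P3 as 1 shared name. This compares 3 E5.5 with 9 E6.5 embryos. It gave 285 higher genes (2.54%) and 333 lower genes (2.97%). All 97 called genes of the naming rule kept their direction and 63 kept their call. The 34 that lost it were Zfp42, Lgr4, Slc26a2, Tbx3, Nanog, Tcf15, Fst, Sfrp2, Foxa2, Lhx1, Wnt3, Gdf3, Lefty1, Nodal, Smad4, Dkk1, Wls, Fgf4, Spred1, Spred2, Smad5, Krt19, Cdh3, Lama5, Psmb8, Tapbp, Ifitm3, Slc2a3, Ccnd2, Peg10, Nr4a1, Zfp36, Dusp1 and Apoa4, and their log2 fold changes moved by a median of 0.35 in size.

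**Figure D2:**
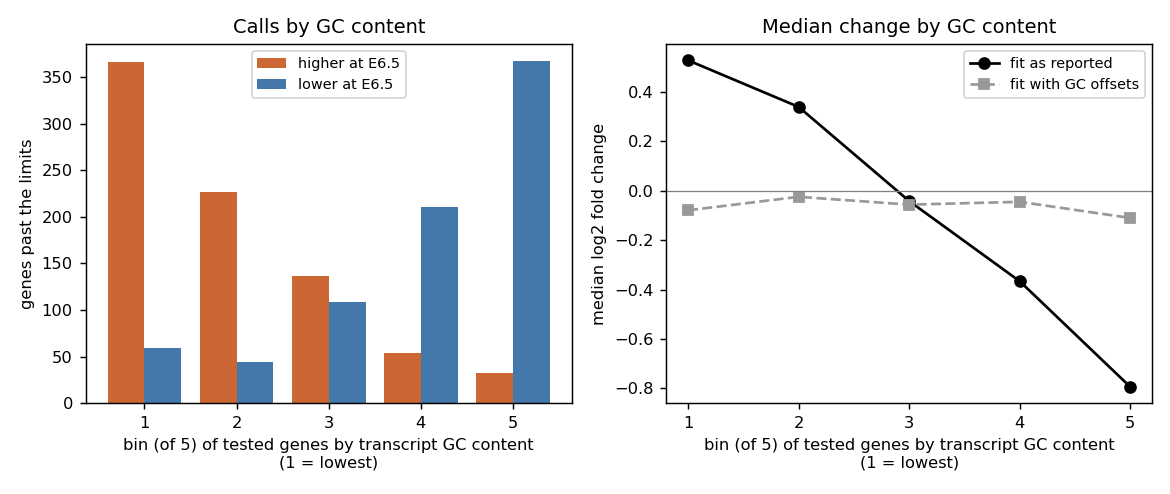
Genes past the limits (left; bars, higher or lower at E6.5) and the median log2 fold change (right; solid line for the fit as reported, dashed line for the fit with GC offsets) in 5 equal bins of the tested genes by transcript GC content. The count of higher genes goes from 366 to 32 and that of lower genes from 59 to 367 between the lowest and the highest bin.

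Promoter sequences are shown for 2 markers and 3 germline genes, because each holds 1 of 2 motifs searched on both strands. The motifs are the octamer ATGCAAAT, which POU factors such as Pou5f1 can bind, and the E-box CACGTG, which reads the same on both strands. The octamer matches shown lie on the other strand and read ATTTGCAT. Promoters are RefSeq's on GRCm38.p6, 250 bases before to 50 after the start, and were found for 65 of the 99 named genes. The octamer was found in 2 of the 4 markers, Zfp42, which fell, and Lgr4, which rose. It was found in 1.38% of the 7732 tested genes with a promoter, 0.849% of 589 higher genes and 1.80% of 556 lower genes. The E-box was found in Mael, Hormad1 and Stk31, the 3 lower germline genes with a promoter, in 6 of the 9 tested germline genes with a promoter, and in 10.6% of all tested genes with one. Matches are in capitals, and the regions are chr8:43306960-43307259 (minus strand), chr2:109917397-109917696 (plus strand), chr1:166238695-166238994 (minus strand), chr3:95559427-95559726 (plus strand) and chr6:49395354-49395653 (plus strand).
Zfp42: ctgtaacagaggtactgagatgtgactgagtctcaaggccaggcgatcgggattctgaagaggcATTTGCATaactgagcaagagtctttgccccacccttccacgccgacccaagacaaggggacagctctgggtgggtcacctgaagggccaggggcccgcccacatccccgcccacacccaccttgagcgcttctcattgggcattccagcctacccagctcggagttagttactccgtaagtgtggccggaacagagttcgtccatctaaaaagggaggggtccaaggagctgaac
Lgr4: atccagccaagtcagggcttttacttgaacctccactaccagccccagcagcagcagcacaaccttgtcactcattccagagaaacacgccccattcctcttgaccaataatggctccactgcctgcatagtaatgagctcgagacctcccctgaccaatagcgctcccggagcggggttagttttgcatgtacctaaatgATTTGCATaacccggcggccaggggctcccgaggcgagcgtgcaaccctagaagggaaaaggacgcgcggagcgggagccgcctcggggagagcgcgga
Mael: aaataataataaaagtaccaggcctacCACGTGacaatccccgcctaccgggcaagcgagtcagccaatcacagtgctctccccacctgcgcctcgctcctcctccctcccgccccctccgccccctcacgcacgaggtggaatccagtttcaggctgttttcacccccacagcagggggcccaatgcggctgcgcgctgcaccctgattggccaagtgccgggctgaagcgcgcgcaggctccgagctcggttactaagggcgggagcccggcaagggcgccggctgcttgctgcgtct
Hormad1: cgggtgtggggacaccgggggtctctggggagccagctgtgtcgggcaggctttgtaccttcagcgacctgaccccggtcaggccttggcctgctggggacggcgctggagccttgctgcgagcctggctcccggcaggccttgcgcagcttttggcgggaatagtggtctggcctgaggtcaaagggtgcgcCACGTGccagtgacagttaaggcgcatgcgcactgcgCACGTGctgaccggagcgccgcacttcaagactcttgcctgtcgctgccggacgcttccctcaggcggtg
Stk31: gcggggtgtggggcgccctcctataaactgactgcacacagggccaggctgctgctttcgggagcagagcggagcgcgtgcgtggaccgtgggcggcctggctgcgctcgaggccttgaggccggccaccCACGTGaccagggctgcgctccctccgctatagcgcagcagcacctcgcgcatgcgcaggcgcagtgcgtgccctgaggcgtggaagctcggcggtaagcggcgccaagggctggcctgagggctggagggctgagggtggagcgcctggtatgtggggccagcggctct

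The octamer began 186 bases before the start in Zfp42 and 49 bases before it in Lgr4. The E-box began 223 bases before the start in Mael, 57 and 20 bases before it in Hormad1 and 120 bases before it in Stk31. These are matches of letters, and no binding was measured.

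Of the 4 marker genes, Fgf5 and Lgr4 rose and Aire and Zfp42 fell. Aire, which in the thymus drives the display of tissue-restricted antigens (GRCm38, chromosome 10, 78030022 to 78043610), was at 55.2 to 163 CPM in E5.5 embryos, with a median of 108. It had 24055 counts at E5.5 and none in any of the 9 E6.5 plate embryos, a ratio of 2666 if 3 counts are taken for the E6.5 group. Counts are not independent molecules, so this ratio and others of its kind below are descriptions and not lower bounds. In cells thinned to 200000 counts, 78.1 ± 13.8% of the cells of an E5.5 embryo (SD, n = 8) had an Aire count. None of 90 E6.5 plate cells did, a difference with an adjusted p of 1.1e-04 over the 4 markers (exact two-sided permutation test over 8 and 9 embryos). The models of Aire and Dnmt3l, on opposite strands, overlap at their ends (chromosome 10, 78041947 to 78063622 for Dnmt3l), and with reads that do not mark strand the counts there are uncertain.

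Zfp42, the naive pluripotency marker also called Rex1 (chromosome 8, 43295063 to 43306980), was at 17.4 to 62.1 CPM at E5.5 (median 25.5) and 0 to 7.16 CPM at E6.5 (median 0.203), with a count in 6 of 9 E6.5 plate embryos. It fell with no overlap between the stages (log2 fold change -3.75, SE 0.88, adjusted p = 0.0039). The share of thinned cells with a count was 53.0 ± 11.5% at E5.5 and 7.69 ± 10.7% at E6.5 (exact permutation test, adjusted p = 1.1e-04). With the plate-name term its adjusted p was 0.08. Without the cell rule the log2 fold change of Zfp42 was -2.37 and no longer passed.

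Fgf5, a secreted ligand of the postimplantation epiblast (chromosome 5, 98254184 to 98277030), was at 44.7 to 70.9 CPM at E5.5 (median 56.7) and 95.4 to 239 CPM at E6.5 (median 171). Every E6.5 plate embryo lay above every E5.5 embryo (log2 fold change 1.53, SE 0.21, adjusted p = 1.8e-05). The share of thinned cells with an Fgf5 count was 75.4 ± 6.89% and 92.4 ± 10.3% (exact permutation test, adjusted p = 0.0031).

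Lgr4, a receptor for R-spondins that strengthens Wnt signalling (chromosome 2, 109917647 to 110014257), was at 29.8 to 121 CPM at E5.5 (median 70.0) and 52.6 to 557 CPM at E6.5 (median 214). It rose (log2 fold change 1.99, SE 0.37, adjusted p = 4.4e-04), with an overlap of the groups only through the lowest E6.5 embryo, and had an adjusted p of 0.055 with the plate-name term. The share of thinned cells with a count went from 76.7 ± 5.05% to 98.5 ± 4.44% (exact permutation test, adjusted p = 1.1e-04). A second set of E6.5 sums was made from kept cells without a count of the streak gene T in 3 embryos that have no plate in their titles, 2 of them titled E6.75 though labelled E6.5. In these Lgr4 had a median of 43.4 CPM and a log2 fold change against the same E5.5 embryos of -0.85 (adjusted p = 0.2). The rise of Lgr4 was thus measured on plates P1 to P3 and not in those embryos. That comparison shares its E5.5 controls with the one on plates, called 3.45% of 13606 genes higher and 4.83% lower, and the difference between the sets of E6.5 embryos was not tested for any gene below.

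The other markers were on the same side of E5.5 in the embryos without a plate name. Fgf5 had a log2 fold change there of 1.18 (adjusted p = 0.012) and Zfp42 of -3.65 (adjusted p = 8.7e-04), and Aire had no count in any of the 3.

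**Figure D3:**
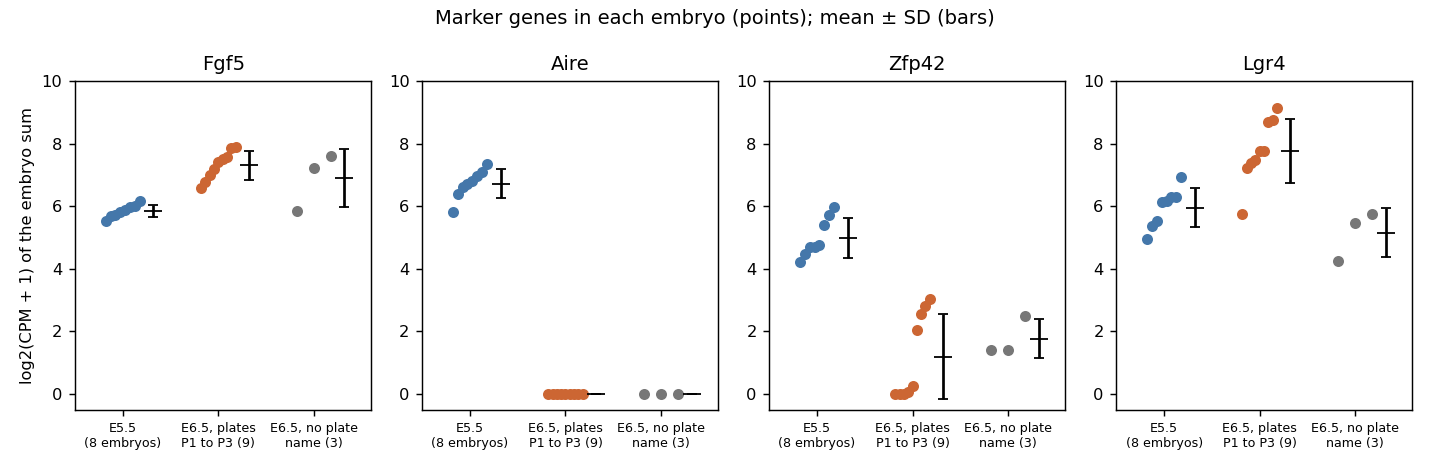
Level of each marker gene as log2(CPM + 1) in each embryo sum (points) at E5.5, on E6.5 plates P1 to P3 and in E6.5 embryos without a plate name, with mean ± SD beside each group. Aire lies at 0 in all E6.5 embryos, and Lgr4 is high in most plate embryos and near its E5.5 level in the 3 other embryos.

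The 12 largest rises, among genes not set aside, with no overlap and a mean of at least 20 CPM at E6.5, were led by 3 gene models. The median of Gm10801 went from 1.40 to 159 CPM, that of AC242409.1 from 0.952 to 192 CPM and that of Gm10800 from 8.09 to 839 CPM. These repeat-like models resemble each other, so how the counting split their reads is uncertain, and their GC content of 34.3 to 35.9% is low. Dpysl2, a cytoskeletal protein of axon growth, was at 1.57 to 13.7 CPM at E5.5 (median 6.69) and 124 to 327 CPM at E6.5 (median 206), a clear gap between the stages (log2 fold change 4.84, SE 0.37, adjusted p = 5.6e-09). Rpgrip1, a ciliary protein, was at 47.2 to 113 CPM at E5.5 (median 60.3) and 653 to 1032 CPM at E6.5 (median 739) (log2 fold change 3.504, SE 0.20, adjusted p = 1.3e-10). Hmga2, a chromatin protein of proliferating embryonic cells, was at 12.01 to 43.9 CPM at E5.5 (median 31.1) and 187 to 597 CPM at E6.5 (median 241) (log2 fold change 3.22, SE 0.31, adjusted p = 1.5e-07). The others were Spry2 and Zic5, described below, and Amd2, Schip1, Slc26a2 and Zfp691, with log2 fold changes of 3.40, 3.39, 3.23 and 3.22. Amd2 is a near copy of Amd1, which makes its counts uncertain.

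The values of these genes in the embryos without a plate name varied. Dpysl2 had a log2 fold change there of 2.87 (adjusted p = 0.0014), and Slc26a2, a sulfate transporter, of 3.00 (adjusted p = 0.0039). Rpgrip1 had a median of 76.9 CPM and a log2 fold change of 0.15 (adjusted p = 0.82), and Zfp691, a zinc finger protein, one of -0.75 (adjusted p = 0.7). Of the others, these embryos had AC242409.1 at 2.11, Amd2 at 1.59 and Schip1 at 1.23 (adjusted p of 0.13, 0.13 and 0.14).

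The 12 largest drops had medians of 0 to 1.52 CPM at E6.5, low values that their choice by size of drop favours. Kept cells had a median of 6519 genes with a count at E5.5 and 5862.5 on the E6.5 plates. In E6.5 cells without a plate name that passed the rule it was 9400.5, and 7952 where titled E6.75. The part of gene detection in the zeros on the plates was not tested. After Aire came Gm4969, with 5701 counts at E5.5 and none on the E6.5 plates, a ratio of 632 if 3 counts are taken for E6.5. Cox7b2, a cytochrome oxidase subunit known from testis, and Gpat2, a mitochondrial acyltransferase with a role in germ cells, each had a count in 1 of 9 E6.5 plate embryos. Gpat2 was at 7.46 to 50.4 CPM at E5.5 and 0 to 0.407 CPM at E6.5. Ltbp4, which binds latent TGF-beta in the matrix, was at 43.7 to 86.5 CPM at E5.5 and 0 to 3.02 CPM at E6.5 (log2 fold change -6.62, SE 0.89, adjusted p = 1.2e-05). Ctgf, a secreted matrix protein and YAP target, was at 4.32 to 79.9 CPM at E5.5 and 0 to 2.44 CPM at E6.5 (log2 fold change -5.80, SE 1.09, adjusted p = 5.5e-04). Gpx2, a glutathione peroxidase, fell by 6.32 on the log2 scale (adjusted p = 5.8e-05) and Gstp2, a glutathione transferase, fell by 5.52 (adjusted p = 3.3e-05). Gm14401, Gm7221 and Gm13247 had log2 fold changes of -7.36, -6.20 and -6.03, and Ier3 is described below. All 12 were also lower than at E5.5 in the embryos without a plate name, with the highest adjusted p at 0.041. Ltbp4 was at 4.31 to 19.3 CPM in those embryos, above its range on the plates.

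**Figure D4:**
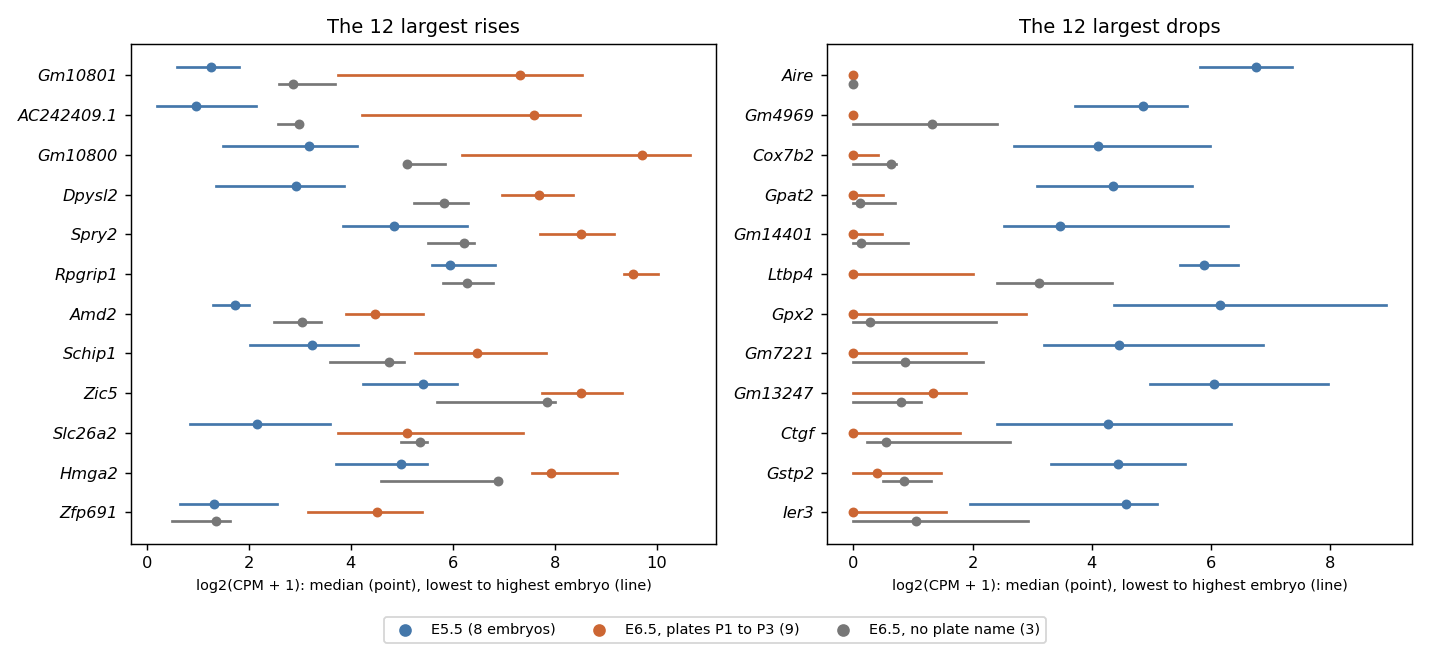
Level as log2(CPM + 1) of the 12 genes with the largest rises (left) and drops (right), with the median embryo as a point and the lowest to highest embryo as a line for E5.5, E6.5 plates P1 to P3 and E6.5 embryos without a plate name. Rpgrip1 and Zfp691 lie near their E5.5 level in the embryos without a plate name, and most genes that dropped lie near 0 in both sets of E6.5 embryos.

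Naive pluripotency genes moved both ways. Of 23 tested members, 7 fell and 3 rose (30.4% lower and 13.04% higher, against 7.29% and 7.49% of all genes), with a median log2 fold change of -0.29 against -0.04 over all genes. Dppa5a, an RNA-binding protein of pluripotent cells, was at 2859 to 4919 CPM at E5.5 (median 3116) and 241 to 657 CPM at E6.5 (median 283), far apart (log2 fold change -3.32, SE 0.19, adjusted p = 1.3e-10). Dppa2, a chromatin protein of early embryos, fell from a median of 74.4 to 1.70 CPM, and Dppa3, a maternal factor that protects DNA methylation, from 53.4 to 4.05 CPM, both with no overlap. Nanog, a core pluripotency factor, went the other way, from 4.06 to 18.8 CPM (median 10.04) to 3.48 to 248 CPM (median 82.0; log2 fold change 3.14, SE 0.61, adjusted p = 7.5e-04), with an overlap at its 2 lowest E6.5 embryos. Tbx3, a T-box factor, rose too but is among the genes set aside, and it had an adjusted p of 0.18 in cells whose epiblast mean was at least 4 log2 units above the endoderm mean. It did not pass in the embryos without a plate name, with a log2 fold change of 2.11 (adjusted p = 0.45). Among members chosen after their values were seen, Dppa4 fell (-2.67), and Zscan10 (-1.17) and Lifr (2.75, set aside) passed but lost their call with GC offsets (adjusted p of 0.35 and 0.1). Sox2, another core factor, was at 33.0 ± 11.4 CPM (SD, n = 8) at E5.5 and 62.8 ± 43.0 CPM (n = 9) at E6.5 and did not pass (adjusted p = 0.15).

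Of 22 formative and primed epiblast genes, 9 rose (40.9%, against 7.49% of all genes) and 2 fell (9.09%, against 7.29%), with a median log2 fold change of 0.93. Zic5 and Zic2, neighbouring zinc finger factors of the primed epiblast, rose from medians of 41.6 to 365 CPM and of 10.9 to 50.3 CPM, and Sox4, a SoxC factor, from 73.9 to 395 CPM, with no overlap in any of the 3. Otx2, the homeobox factor that directs the exit from naive pluripotency, was at 82.6 to 180.2 CPM at E5.5 and 243 to 594 CPM at E6.5, again with no overlap (log2 fold change 1.37, SE 0.20, adjusted p = 3.7e-05), and was chosen after its values were seen. Sfrp2, a secreted Wnt modulator, rose by 2.10 log2 units, and Lin28a and Lin28b, which block maturation of let-7 miRNAs and were chosen after their values were seen, by 1.04 and 1.66. With GC offsets Lin28b came to 0.9996, inside the fold limit. Fst, the activin antagonist follistatin, had a log2 fold change of 2.67 (adjusted p = 0.018), and lost its call with GC offsets (adjusted p = 0.056) and without E6.5 embryo 2 (adjusted p = 0.051). Tcf15, a bHLH factor, fell by 2.89 on the log2 scale and lost its call with GC offsets (adjusted p = 0.17). Of these genes 6 did not pass in the embryos without a plate name, with log2 fold changes of Sox4 at 0.79, Otx2 at 0.91, Sfrp2 at 0.56, Lin28a at -0.18, Lin28b at 0.57 and Tcf15 at -1.87 (adjusted p of 0.044, 0.022, 0.58, 0.67, 0.41 and 0.064).

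Primitive streak and mesendoderm genes were higher in 7 of 10 tested members (70%, against 7.49% of all genes) and lower in none, with a median log2 fold change of 3.49. The list has 26 genes, and the others had too few counts to be tested. Cer1, Foxa2, Cyp26a1 and Lhx1, near 0 at E5.5, passed the filter on low counts mainly through E6.5, which favoured a higher call. The share holds for the tested members only. Eomes, the T-box factor of mesendoderm, was at 3.21 to 22.1 CPM at E5.5 (median 8.40) and 40.5 to 311 CPM at E6.5 (median 119), with no overlap (log2 fold change 3.47, SE 0.45, adjusted p = 9.6e-06). Wnt3, the Wnt ligand that induces the streak, rose from a median of 2.16 to 18.7 CPM, Lhx1, a LIM homeobox factor, from 0.468 to 16.5 CPM, and Cyp26a1, which degrades retinoic acid, from 0 to 43.2 CPM. Apart from Wnt3, the 7 are among the genes set aside. Within the E6.5 plates alone the ratio of rejected to kept cells was 1.53 for Eomes, 1.45 for Fgf8, 11.5 for Cyp26a1 and 19.3 for Lhx1. Cer1, a Nodal and Wnt antagonist that also marks anterior visceral endoderm, had no count at E5.5 and was at 2.70 to 72.2 CPM at E6.5. The ratio was 2173 if 3 counts are taken for the E5.5 group. Its ratio of rejected to kept E6.5 cells was 12.6, and the part of endoderm in its rise was not tested. Lhx1 did not pass in the embryos without a plate name, with a log2 fold change of 2.71 (adjusted p = 0.22).

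In the Nodal pathway 4 of 18 members fell (22.2%, against 7.29% of all genes) and 2 rose (11.1%, against 7.49%), with a median log2 fold change of -0.58. With GC offsets 2 were lower and 3 higher. Among ligands, Gdf3, a partner of Nodal, was at 85.4 to 167 CPM at E5.5 and 0 to 129 CPM at E6.5 (log2 fold change -2.55, SE 0.82, adjusted p = 0.03), and lost its call without E5.5 embryo 8 or E6.5 embryo 4 (highest adjusted p = 0.052). Nodal itself went from a median of 44.9 to 12.2 CPM and its antagonist Lefty1, which is set aside, from 40.2 to 14.2 CPM. Both lost their call with GC offsets (adjusted p of 0.13 and 0.17). Nodal also lost it on leaving out any 1 of 10 of the 17 embryos, and Lefty1 any 1 of 5. Downstream, Foxh1, the factor through which Smads act on Nodal targets, fell from a median of 96.0 to 9.45 CPM. Skil, a repressor of Smad targets, rose from 118 to 244 to 344 to 1179 CPM, with no overlap, and Smad4, the shared Smad, from a median of 56.3 to 134 CPM. Skil in the embryos without a plate name was at 150.4 to 244 CPM, within its E5.5 range, and 3 of these genes did not pass, with log2 fold changes of Skil at 0.08, Foxh1 at -0.99 and Lefty1 at -3.38 (adjusted p of 0.88, 0.034 and 0.069).

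In the Wnt pathway 8 of 29 members rose (27.6%, against 7.49% of all genes) and 1 fell (3.45%, against 7.29%), with a median log2 fold change of 0.88. In the embryos without a plate name 3 were higher, against 3.45% of all genes there, and the median was 0.23. Among receptors, Lgr4 rose as described and Lrp5, a co-receptor, fell from a median of 68.5 to 1.02 CPM with no overlap, while Fzd2, chosen after its values were seen, rose by 1.92 log2 units. Dkk1, an antagonist, rose from a median of 0.0374 to 27.6 CPM but is set aside, and did not pass in the embryos without a plate name (adjusted p = 0.051). Wls, which exports Wnt ligands and is also set aside, lost its call with GC offsets (adjusted p = 0.13) and on leaving out any 1 of 8 embryos.

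In the FGF and ERK pathway 5 of 22 members rose (22.7%, against 7.49% of all genes) and 1 fell (4.55%, against 7.29%), with a median log2 fold change of 0.37. Of the ligands, Fgf4, the FGF of naive cells, fell from a median of 71.3 to 0.677 CPM (log2 fold change -3.13, SE 0.88, adjusted p = 0.013), and Fgf8, a streak ligand that is set aside, rose from 7.39 to 112 CPM. Of the inhibitors, Spry2, a feedback inhibitor of receptor tyrosine kinases, was at 13.3 to 77.0 CPM at E5.5 (median 27.7) and 209 to 572 CPM at E6.5 (median 365), with no overlap (log2 fold change 3.57, SE 0.31, adjusted p = 3.5e-08). Spred1 and Spred2, inhibitors of the same route, rose by 2.18 and 1.76 log2 units. In the embryos without a plate name Spry2 was at 44.7 to 84.8 CPM, and none of these inhibitors passed, with log2 fold changes of Spry2 at 1.06, Spred1 at 1.39 and Spred2 at 0.54 (adjusted p of 0.11, 0.093 and 0.57). Of 13 BMP pathway members 1 rose (7.69%, against 7.49% of all genes, a share near the background) and none fell. It was Smad5, a receptor-activated Smad (log2 fold change 2.33), and the list had a median log2 fold change of 0.70.

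Of 11 tested germline genes 5 fell (45.5% against 7.29% of all genes) and none rose, with a median log2 fold change of -2.71. The list has 18 genes, and the others had too few counts to be tested. A gene without E6.5 counts, such as Mael, could pass the filter on low counts only through E5.5, which favoured a lower call. Hormad1, a meiotic chromosome protein, was at 31.5 to 307 CPM at E5.5 (median 102) and 0 to 13.5 CPM at E6.5 (median 2.14), with no overlap (log2 fold change -5.38, SE 0.80, adjusted p = 4.4e-05). Mael, a piRNA factor of germ cells, had 1088 counts at E5.5 and none at E6.5, a ratio of 121 if 3 counts are taken for E6.5. Stk31, a kinase-like testis protein, went from a median of 24.3 to 0.435 CPM and Piwil2, a piRNA-binding protein, from 6.04 to 0 CPM, and Dppa3 is also in this list. Piwil2 did not pass in the embryos without a plate name, with a log2 fold change of -2.60 (adjusted p = 0.071). Dazl and Sycp3, chosen after their values were seen, had log2 fold changes of -2.71 and -1.83 and did not pass (adjusted p of 0.1 and 0.052).

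Of 18 antigen presentation genes 9 fell, Aire among them (50%, against 7.29% of all genes), and none rose, with a median log2 fold change of -1.44. With GC offsets 6 were lower and 1 higher, with a median of -0.99. The median GC content of the list was 54.8%, against 49.9% over all genes tested. The list has 21 genes, and the others had too few counts to be tested. Aire and Tap1, without E6.5 counts, could pass the filter on low counts only through E5.5. Tap2 passed mainly through E5.5, and this favoured a lower call for all of them. The share holds for the tested members only, and Aire is also 1 of the 4 marker genes. Tap1, a subunit of the peptide transporter, was at 2.64 to 14.1 CPM at E5.5 and had no count at E6.5, a ratio of 162 if 3 counts are taken for E6.5. Tap2, the other subunit, had a count in 1 of 9 E6.5 plate embryos. Psmb8, a catalytic subunit of the immunoproteasome, was at 16.5 to 142 CPM at E5.5 (median 84.1) and 0 to 22.9 CPM at E6.5 (median 0) (log2 fold change -4.49, SE 1.06, adjusted p = 0.0039). Tapbp, which loads peptides on MHC class I, was at 38.9 to 171 CPM at E5.5 and 0.107 to 24.3 CPM at E6.5, and Ifitm3, an interferon-induced membrane protein, fell by 2.20 on the log2 scale. Among members chosen after their values were seen, H2-K1, a class I heavy chain, was at 61.6 and 21.8 CPM on average and did not pass (adjusted p = 0.1), and B2m, the light chain, at 9.12 and 16.6 CPM (adjusted p = 0.42).

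Of 13 DNA methylation genes 3 fell (23.1%, against 7.29% of all genes) and none rose, with a median log2 fold change of 0.02. Dnmt3l, the cofactor of de novo methylation, was at 68.3 to 199 CPM at E5.5 (median 102) and 0 to 22.3 CPM at E6.5 (median 2.72), with no overlap (log2 fold change -4.37, SE 0.74, adjusted p = 1.8e-04), and had an adjusted p of 0.056 in cells with a margin of at least 4 log2 units. Dnmt3a, a de novo methyltransferase, was at 858 to 1441 CPM at E5.5 and 281 to 610.1 CPM at E6.5, again apart (log2 fold change -1.40, SE 0.14, adjusted p = 2.7e-07). Mbd3, a subunit of the NuRD complex, had a log2 fold change of -1.39, which was -0.33 with GC offsets (adjusted p = 0.39). Among members chosen after their values were seen, Dnmt1, the maintenance enzyme, had a log2 fold change of -0.0026 and Tet1, a methylcytosine oxidase, of 0.02, and neither passed (adjusted p of 0.996 and 0.98). Of 16 Polycomb genes 1 rose and 1 fell (6.25% each, near the 7.49% and 7.29% of all genes), with a median log2 fold change of 0.36. Jarid2, an accessory subunit of PRC2, rose from a median of 122 to 282 CPM, and Kdm2b, which brings PRC1 to CpG islands, fell from 75.8 to 21.1 CPM. Jarid2 in the embryos without a plate name had a median of 131 CPM, and 3 genes of these lists did not pass, with log2 fold changes of Jarid2 at -0.03, Kdm2b at -0.48 and Mbd3 at -0.60 (adjusted p of 0.95, 0.27 and 0.11).

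Of 23 adhesion genes 3 rose and 4 fell (17.4% lower and 13.04% higher, against 7.29% and 7.49% of all genes), with a median log2 fold change of 0.26. Cldn4, a tight junction protein, was at 95.8 to 243 CPM at E5.5 and 0 to 52.5 CPM at E6.5, with no overlap (log2 fold change -3.65, SE 0.68, adjusted p = 4.9e-04), and Cdh3, P-cadherin, fell from a median of 11.8 to 0.454 CPM. Fn1, fibronectin, fell by 2.24 on the log2 scale, and Lama5, a laminin chain, had a log2 fold change of -1.71, which was -0.91 with GC offsets (adjusted p = 0.2). Pdpn, podoplanin, rose from 49.9 to 79.0 to 169 to 728 CPM but is set aside, as is Krt19, a keratin whose call was lost on leaving out any 1 of 6 embryos. In the embryos without a plate name Fn1 had a median of 41.0 CPM, against 35.3 CPM at E5.5, and 3 of these genes did not pass, with log2 fold changes of Fn1 at -0.02, Pdpn at -0.22 and Krt19 at 2.15 (adjusted p of 0.98, 0.61 and 0.41).

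Of 20 glycolysis genes 2 rose and 4 fell (20% lower and 10% higher, against 7.29% and 7.49% of all genes), with a median log2 fold change of -0.30. Both that rose are transporters and are set aside, Slc2a3 for glucose (median 29.2 to 172 CPM) and Slc16a1 for monocarboxylates (70.8 to 267 CPM). Slc16a3, a lactate carrier, was at 551 to 764 CPM at E5.5 and 114 to 486 CPM at E6.5, and the enzymes Pfkl, Gpi1 and Eno1 had log2 fold changes of -1.32, -1.30 and -1.06. With GC offsets Slc16a3, Pfkl and Eno1 came to -0.95, -0.71 and -0.44, inside the fold limit, and Eno1 also without E6.5 embryo 2 (-0.99). Of 19 G1 and Myc genes 3 rose (15.8%, against 7.49% of all genes) and none fell, with a median log2 fold change of -0.29. Mycn, a Myc family factor, was at 20.2 to 66.9 CPM at E5.5 and 136 to 307 CPM at E6.5, with no overlap (log2 fold change 2.45, SE 0.25, adjusted p = 2.9e-07). Ccnd2, a D-type cyclin, rose by 2.65 log2 units and Cdkn1b, an inhibitor of cyclin-dependent kinases, by 2.40. The limits were missed by 4 genes of these lists in the embryos without a plate name, with log2 fold changes of Pfkl at -0.69, Gpi1 at -0.71, Ccnd2 at 0.88 and Cdkn1b at 1.23 (adjusted p of 0.027, 0.026, 0.28 and 0.092).

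Of 14 imprinted genes 4 rose (28.6%, against 7.49% of all genes) and none fell, with a median log2 fold change of 0.77. H19, a maternally expressed noncoding RNA, was at 2.88 to 36.3 CPM at E5.5 and 39.9 to 310.1 CPM at E6.5 (log2 fold change 3.92, SE 0.56, adjusted p = 3.0e-05), and Grb10, an adaptor of growth factor receptors, rose from a median of 41.3 to 178 CPM, both set aside. Impact, a translation regulator, rose from a median of 30.0 to 126 CPM. Peg10, a retrotransposon-derived gene, is set aside and lost its call with GC offsets (adjusted p = 0.096) and on leaving out any 1 of 12 embryos. Neither Impact nor Peg10 passed in the embryos without a plate name, with log2 fold changes of Impact at -0.23 and Peg10 at 1.98 (adjusted p of 0.83 and 0.23).

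Of 17 tested immediate early and stress genes 5 fell (29.4%, against 7.29% of all genes) and none rose, with a median log2 fold change of -1.64. The list has 20 genes, and the others had too few counts to be tested. Ier3, Fosb, Nr4a1 and Zfp36, with a median of 0 CPM at E6.5, passed the filter on low counts mainly through E5.5. This favoured a lower call, and the share holds for the tested members only. Ier3 was at 2.90 to 33.2 CPM at E5.5 and 0 to 1.95 CPM at E6.5 (log2 fold change -5.49, SE 1.07, adjusted p = 7.5e-04). Fosb, a subunit of AP-1, had a count in 1 of 9 E6.5 plate embryos, Zfp36, which destabilises AU-rich mRNAs, fell from a median of 6.32 to 0 CPM, and Dusp1, a phosphatase of MAP kinases, from 42.8 to 10.5 CPM. Fosb and Dusp1 did not pass in cells with a margin of at least 4 log2 units (adjusted p of 0.16 and 0.15). Nr4a1, a nuclear receptor, lost its call with GC offsets (adjusted p = 0.061) and without E5.5 embryo 6 (adjusted p = 0.054). Neither the call of Nr4a1 nor those of Zfp36 and Dusp1 held in the embryos without a plate name, with log2 fold changes of Nr4a1 at -2.81, Zfp36 at -2.31 and Dusp1 at -0.75 (adjusted p of 0.21, 0.17 and 0.23).

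Among the markers of visceral endoderm, trophoblast and blood, only those of visceral endoderm had calls. Of 20 tested visceral endoderm markers outside the rule 10 were higher at E6.5 and 3 lower (against 7.49% and 7.29% of all genes), with a median log2 fold change of 1.71. Cer1, Foxa2, Dkk1, Apoa4 and Afp, near 0 at E5.5, passed the filter on low counts mainly through E6.5, which favoured a higher call. These shares hold for the tested members only. Apom, Afp and Apoa4, secreted by visceral endoderm, went from medians of 2.83 to 91.1 CPM, 0.206 to 55.5 CPM and 0.199 to 29.5 CPM. In cells with a margin of at least 4 log2 units, which left 4 E6.5 embryos, the list had a median of 1.25, and Apoa4 had an adjusted p of 0.15. The part of endoderm in the changes of the other lists was not tested. Of 6 tested trophoblast markers none passed. Tex19.1 had a log2 fold change of -1.65 (adjusted p = 0.18) and Ets2 of 0.58 (adjusted p = 0.73), and no blood marker had enough counts to be tested.

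**Figure D5:**
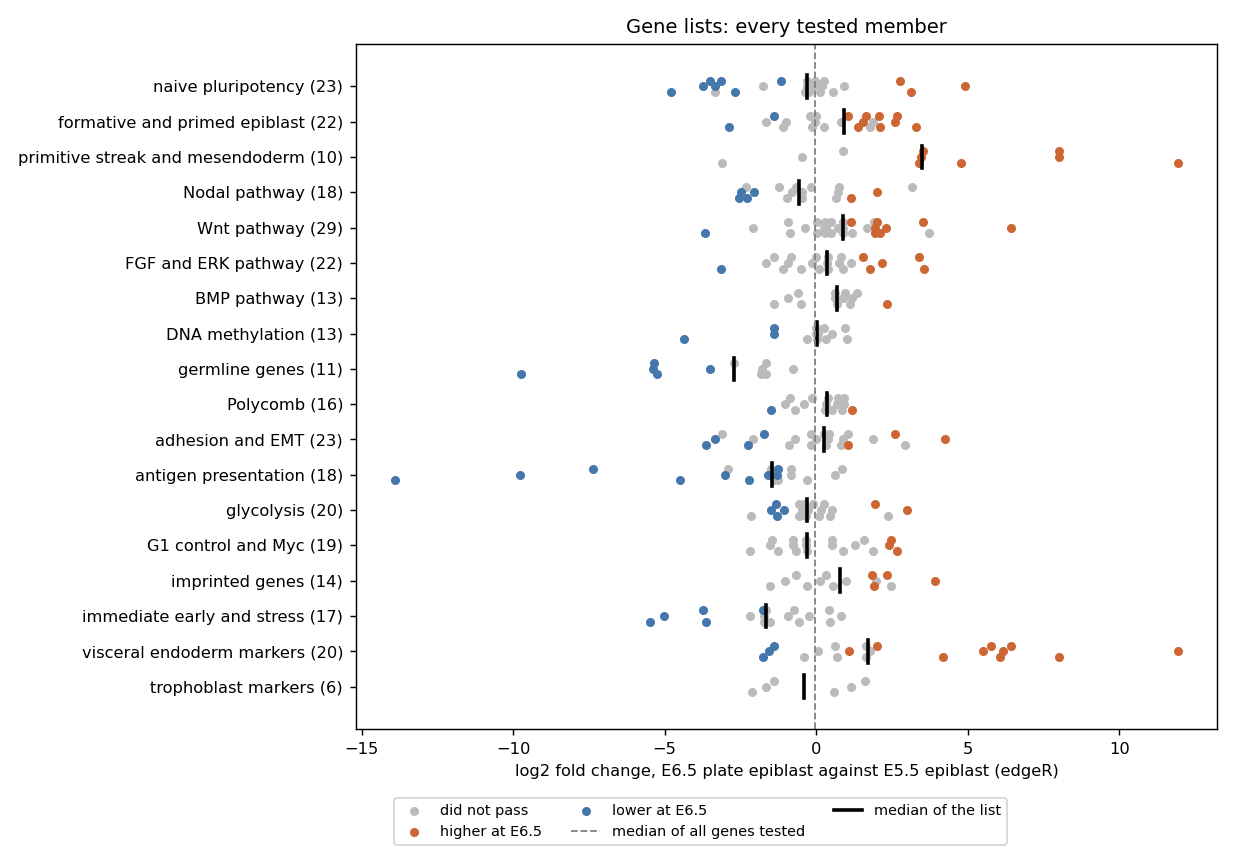
Log2 fold change from E5.5 epiblast to E6.5 plate epiblast of every tested member of each gene list (points; number tested in brackets), coloured by whether it passed the limits, with the list median (bar) and the median of all genes tested (dashed line). Primitive streak genes have a median of 3.49, antigen presentation genes of -1.44 and germline genes of -2.71.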

How the data were processed

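Single-cell RNA-seq libraries (SMARTSEQ2, with G&T-Seq) were made from hand-picked cells. The deposited table holds raw counts per gene and cell, which the authors made from reads trimmed with Trim Galore and mapped with HISAT2 to GRCm38 (0.4.3 and 2.0.5 in the submitters' notes). No column belonged to a cell outside the series (0 columns). The members and gene lists were chosen with earlier results of these data known.

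Counts of cells passing the rule were summed per embryo (at least 3 cells) and tested with edgeR 4.0.16 in R 4.3.3 (TMM, filterByExpr, glmQLFit and glmQLFTest, no covariate), and CPM used TMM-scaled totals. The 9 rule genes got no test. Shares of cells used 200000 counts per cell, leaving out 1 shallower cell, and an exact permutation test (scipy 1.17.1). Named genes were the 4 markers, the 12 largest rises and 12 largest drops with no overlap, a mean of at least 20 CPM in the higher group and not set aside, and up to 6 called genes per list with the largest change (2 with the highest level for a list with no call); others are said to be chosen after their values were seen. GC content came from GENCODE models matched to 23470 of 24483 rows. Alternatives included DESeq2 1.42.0 and limma 3.58.1; GC offsets, a margin of 4, plate names as a term and each E6.5 plate alone were chosen after the data were seen. Same-numbered embryos of the stages had correlations of their deviations from -0.05 to 0.02, so the numbers do not pair them. Cells of E3.5, E4.5 and visceral endoderm entered only the alternative with all stages or the ratio of rejected to kept cells.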

Additional observations from a re-analysis of the deposited data

Results flagged for a closer look

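Among 193 groups of values of the named genes, 23 held an embryo that stood apart from the rest of its stage by Dixon's criterion on the log2(CPM + 1) scale, and chance gives about 1 in 20 groups. Embryos high for their stage at E5.5 were embryo 9 for Spry2 (77.05 CPM), embryo 1 for Cyp26a1 (1.765 CPM) and H19 (36.27 CPM), embryo 3 for Mael (22.29 CPM) and embryo 4 for Eno1 (3295 CPM). Embryos low for their stage at E5.5 were embryo 8 for Ier3 (2.905 CPM), embryo 7 for Spred2 (3.342 CPM) and embryo 1 for Psmb8 (16.46 CPM).

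On the E6.5 plates embryo 2, a sum of 3 cells, was high for Hmga2 (597.1 CPM) and low for Smad4 (35.76 CPM) and Gpi1 (47.23 CPM). Embryo 9 was high for Dppa5a (657 CPM) and had Cyp26a1 at 0. Embryo 7 was low for Mycn (136.4 CPM) and Lama5 (1.059 CPM) and had Wls at 0, and embryo 6 had Ifitm3 at 0. Single embryos with a few counts of a gene with none in the others were embryo 3 for Cox7b2 (0.3258 CPM) and Gpat2 (0.4073 CPM), embryo 4 for Piwil2 (1.001 CPM), embryo 5 for Tap2 (0.5079 CPM) and embryo 8 for Fosb (1.817 CPM). Embryo 4 was low for Apom (15.92 CPM).

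Zfp691 lay on one side of the E5.5 mean in every plate embryo and on the other in every E6.5 embryo without a plate name, where its log2 fold change was -0.7498. This difference was not tested.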

How the results depend on the processing

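Against 839 higher and 816 lower genes (50.7% of calls higher), leaving out 1 embryo gave 717 to 922 higher and 662 to 871 lower genes. There were 1656 higher and 1744 lower genes without the filter on low counts, 249 higher and 235 lower genes with a test against log2 1, 1168 higher and 1920 lower genes with DESeq2 (37.8% higher), 955 higher and 2435 lower genes with limma on embryo means (28.2%), 787 higher and 510 lower genes with sums of at least 1 cell, 1335 higher and 925 lower genes without the cell rule, 821 higher and 1374 lower genes with all stages in the fit (37.4%), 469 higher and 657 lower genes in the E6.5 embryos without a plate name and 529 higher and 365 lower genes without E5.5 plate P7.P4.P5. The next settings, up to the single plates, were chosen after the data were seen. GC and length offsets gave 585 higher and 541 lower genes, and a margin of at least 4 gave 1209 higher and 1824 lower genes. Plate names as a term gave 285 higher and 333 lower genes. Plates P1, P2 and P3 alone gave 888, 1158 and 1049 higher genes and 1475, 1634 and 1713 lower genes. The embryo number as a replicate block gave 547 higher and 1318 lower genes (29.3% higher) and moved the median of all genes to -0.55; 1 of 8 embryos correlated best with its own number. A ratio of 2 in place of 4 set aside 263 called genes in place of 106. The cause of these differences was not tested.

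Of the 97 named calls, 97 held with DESeq2, 91 with the block, 85 with GC offsets, 63 with plate names as a term, 62 in the embryos without a plate name, and 88 on leaving out each embryo. Without the cell rule 88 held, and those lost were Zfp42, Lefty1, Dnmt3l, Mbd3, Piwil2, Stk31, Jarid2, Fosb and Zfp36. In the embryos without a plate name the direction reversed for Lgr4 (-0.8473), Zfp691 (-0.7498), Jarid2 (-0.02933), Pdpn (-0.2204) and Impact (-0.2258). Ets2, which did not pass, reversed with the replicate block (-1.31), a margin of at least 4 (-0.2039), plates P1 (-0.6048) or P3 alone (-1.135) and without plate P2 (-0.875), and ranged from -0.6747 (without E6.5 embryo 6) to 0.8914 on leaving out 1 embryo. The E6.5 sums of embryos 1 and 2 hold 3 cells each, which limits what they show of low genes.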

Other observations

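Some named genes lie close together in the genome (GRCm38). On chromosome 6, Gdf3 (122605403 to 122610087, log2 fold change -2.55) and Dppa3 (122626410 to 122630272, log2 fold change -3.50) fell, while Nanog (122707489 to 122714633, log2 fold change 3.14) and Slc2a3 (122727809 to 122801640, log2 fold change 2.99), next along the chromosome among the named genes, rose. On chromosome 17, Psmb8 (34197721 to 34201454, log2 fold change -4.49) and Tap2 (34203527 to 34216321, log2 fold change -7.36) fell, and Tap1 (34187553 to 34197225), which had no count at E6.5, lies beside them. Zic2 and Zic5 on chromosome 14 both rose. These genes were set side by side after their values were seen, and no test of position was made.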
